A study of Mus musculus with 10 samples.

Results

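The genes described here are 8 acute-phase genes measured in skeletal muscle of mice with cancer cachexia, out of 39179 genes in the count tables. They were listed by name as genes whose products are known in blood as acute-phase proteins or belong to the same response: Lcn2, Serpina3n, Lrg1, Hp, Saa3, Orm1, Cp and Steap4. RNA was sequenced from the tibialis anterior, the fast muscle at the front of the shin, of 4 Control mice and 6 mice with tumors grown from the mouse line Lewis Lung Carcinoma (LLC). Control mice were injected with phosphate-buffered saline, and LLC mice received tumor cells under the skin of both flanks, so every LLC mouse carried an implanted tumor of a single cell line. The sample labels give the strain as C57BL/6J, the age as 10 weeks and the tumor as developing for 23 days, while the description of the design gives C57BL/10 mice, 8 weeks and collection on day 22, and these differences were not resolved. The mice were males with no genetic change named, each of the 10 gave 1 library, and the LLC mice were animals that survived to collection.

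The acute-phase response is the change in secreted proteins that follows infection, injury or a tumor. Interleukin-6 and related cytokines signal through STAT3, and interleukin-1 and tumor necrosis factor through NF-kappa B and C/EBP factors, to raise the transcription of these genes. The liver makes most of the proteins in blood, but several of them are also made by neutrophils, adipocytes, endothelial cells and stressed muscle.

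**Figure D1:**
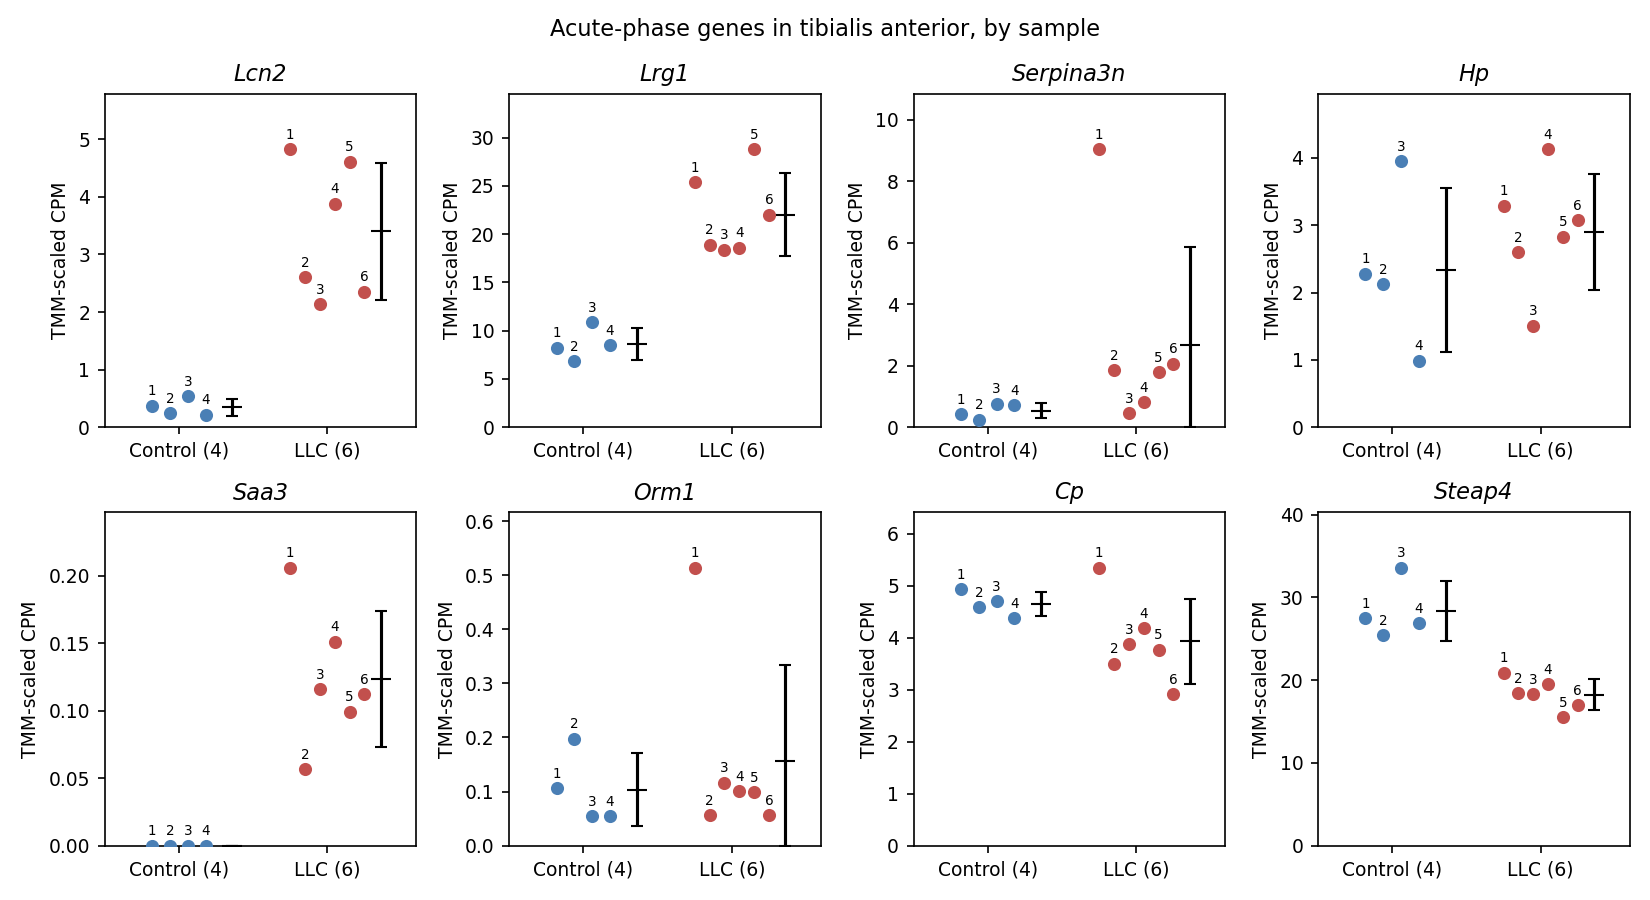
Level of each of the 8 genes in every sample, as CPM (counts scaled to a common library total) after scaling by TMM factors, on axes that start at 0. Points are samples numbered by replicate, and black bars show the mean ± SD, ending at 0 where the SD is larger than the mean. The 6 LLC points of Lcn2, Lrg1 and Saa3 lie above all 4 Control points, and those of Steap4 lie below them.

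In LLC muscle Lcn2 rose 9.79-fold and Lrg1 rose 2.56-fold, while Steap4 fell to 0.645 of its Control level. Serpina3n, Hp and Cp did not pass the threshold, which was an adjusted p of 0.05 or less and at least a 1.5-fold change. Saa3 and Orm1 had too few counts to be tested. Of the 8 genes, 6 were tested and 3 were past the threshold, against 5.63% of the 12690 genes tested (quasi-likelihood test of edgeR, adjusted by Benjamini-Hochberg over all of them). Of the 3, Lcn2 entered the test through the LLC libraries, so its call is no separate support. The 2 higher genes compare with 1.65% of all tested genes called higher, and the lower gene with 3.99% called lower. The groups did not overlap in 4 of the 8, with Lcn2, Lrg1 and Saa3 higher in every LLC sample and Steap4 lower in every LLC sample. Of all tested genes, 6.40% were higher in every LLC sample and 9.57% were lower in every LLC sample. These shares leave out untested genes such as Saa3, so they are not over the same set as the 4 of 8. The median log2 fold change was 0.84 over the 6 tested members and 0.002 over all tested genes. Lcn2 and Serpina3n entered the test through the LLC libraries, and Saa3 and Orm1 were left out, so this median is no separate support. Without LLC 1, the library farthest from its group, the same 3 members were past the threshold.

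Total counts ranged from 16693209 to 21303084 per sample, so that 3 counts, the smallest level taken as detected, were worth 0.141 to 0.180 CPM. Mitochondrially encoded genes took 28.447% to 30.667% of counts in Control and 21.986% to 27.936% in LLC. LLC 1 lay 70.26 log2 CPM units (Euclidean distance over all tested genes) from its group mean, the other LLC samples 26.5 to 36.66 and the Control samples 21.14 to 21.62. Values with and without LLC 1 are therefore given where that library sets a result. The p-values measure the spread between these mice. In a bulk sample, fewer cells of a type and less RNA per cell cannot be told apart.

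The labelled tissue carried its own markers, and the liver's were nearly absent. The summed CPM of 8 fast-fibre genes was 112000 to 119000 in Control and 76700 to 121000 in LLC, and LLC 1 held the lowest sum. Of 10 hepatocyte genes, 4 (Ttr, Fgb, Serpina1c and Cps1) had no count in any library. Alb, the most abundant liver transcript, had at most 2 counts in a Control library and 0 in every LLC library. The hepatocyte sum of 1.21 to 3.18 CPM in Control and 0.615 to 3.5 CPM in LLC came almost wholly from Cyp2e1, which fat also expresses. Markers of the other cell types that could hold these transcripts moved between the groups. Neutrophil markers summed to 0.953 to 2.96 CPM in Control and 35.0 to 74.7 CPM in LLC, and no marker had more than 19 counts in a Control library. The 9 tested markers were called higher, but at such Control counts they entered the test through the LLC libraries, so their number is no separate support. Of the 14 neutrophil markers Elane was at 0 in every library. Fibroblast and fibro-adipogenic progenitor markers summed to 309 to 397 CPM in Control and 57.8 to 102 CPM in LLC, and 8 of 8 were lower. Macrophage markers summed to 23.0 to 37.5 CPM in Control and 19.0 to 39.5 CPM in LLC, and Lyz2, which neutrophils also express, made up much of that sum (13.3 ± 3.05 CPM in Control, SD, n = 4, and 17.1 ± 4.23 CPM in LLC, SD, n = 6). Of the 7 macrophage markers tested, Mrc1 was past the threshold, at 0.483 of its Control level (edgeR adjusted p = 0.00335). DESeq2 called 3 of the 7 lower and none higher, and 3 were lower in edgeR at an unadjusted p under 0.05. Over all 12690 tested genes DESeq2 called 664 lower and 388 higher, and 3472 had an unadjusted p under 0.05 in edgeR, in either direction. Endothelial markers summed to 300 to 371 CPM in Control and 280 to 327 CPM in LLC, and Kdr was past the threshold at 0.456 of Control (adjusted p = 0.0227). Cdh5, Tie1 and Emcn had folds of 0.774, 0.783 and 0.742 (edgeR adjusted p = 0.0323, 0.0392 and 0.0194), under the 1.5-fold limit. Pecam1, Tek and Egfl7 had folds of 1.24, 1.07 and 0.942 (adjusted p = 0.0972, 0.588 and 0.642). Erythroid markers summed to 48.3 to 71.5 CPM in Control and 78.1 to 124 CPM in LLC, and 3 of 4 were higher. Satellite-cell markers summed to 3.62 to 4.13 CPM in Control and 1.39 to 2.62 CPM in LLC, and 2 of 2 tested were lower. Which of these cells made the 8 transcripts was not tested.

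All 8 genes are protein-coding genes of GENCODE release M21 (build mm10), and their counts are over exons. Lcn2 lies on chromosome 2 from 32384633 to 32388252 on the minus strand, Lrg1 on chromosome 17 from 56119678 to 56122001 on the minus strand, and Serpina3n on chromosome 12 from 104406729 to 104414329 on the plus strand. Hp lies on chromosome 8 from 109575128 to 109579172 and Saa3 on chromosome 7 from 46711998 to 46715700, both on the minus strand. Orm1 lies on chromosome 4 from 63344560 to 63348163, Cp on chromosome 3 from 19957054 to 20009145 and Steap4 on chromosome 5 from 7960457 to 7982213, all on the plus strand. Only the exons of Cp overlapped those of another gene, by 108 bases with the antisense gene Hps3. The methods name HTSeq's default settings and RefSeq genes, but the tables list Ensembl genes, so the strand setting behind these counts was taken as unknown, and reads of that stretch could belong to either gene.

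Promoter windows from RefSeq (build GRCm38.p6, 250 bases before a start and 50 after) were found for 6 of the 8 genes, 7 windows in all, namely for Lcn2, Serpina3n, Lrg1, Saa3, Cp and Steap4. Exact matches were searched on both strands for a STAT site (TTCNNNGAA), a C/EBP site (TTGCNNAA), an AP-1 site (TGANTCA), a kappa B site and a glucocorticoid response element. The end of each window was found in an annotated transcript of its gene, except for Saa3. For genes that differed between the groups in opposite directions, or varied most among LLC mice, upstream bases are shown. Only the longest stretch free of annotated exons is printed, with matches in capitals.
Lrg1 (chr17:56122002-56122196, minus strand): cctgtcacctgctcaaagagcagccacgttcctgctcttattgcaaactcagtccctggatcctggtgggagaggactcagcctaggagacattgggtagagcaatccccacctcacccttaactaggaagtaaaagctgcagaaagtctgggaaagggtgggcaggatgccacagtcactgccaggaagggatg
Saa3 (chr7:46715701-46715926, minus strand): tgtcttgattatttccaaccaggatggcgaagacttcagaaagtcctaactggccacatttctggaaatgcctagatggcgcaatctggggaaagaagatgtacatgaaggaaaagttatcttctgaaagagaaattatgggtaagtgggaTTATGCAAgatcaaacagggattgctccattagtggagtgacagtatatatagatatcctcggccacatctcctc
Serpina3n (chr12:104406458-104406707, plus strand): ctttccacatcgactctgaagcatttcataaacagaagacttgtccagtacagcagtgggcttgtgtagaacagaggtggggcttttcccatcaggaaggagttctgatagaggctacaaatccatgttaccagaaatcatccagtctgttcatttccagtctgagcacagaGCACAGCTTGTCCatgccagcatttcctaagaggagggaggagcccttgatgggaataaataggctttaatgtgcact
Steap4 (chr5:7960347-7960456, plus strand): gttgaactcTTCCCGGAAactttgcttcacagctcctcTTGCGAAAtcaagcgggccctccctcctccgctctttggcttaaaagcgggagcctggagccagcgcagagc

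The capitals mark a C/EBP match from -99 to -92 in Saa3, a glucocorticoid response element match from -78 to -66 in Serpina3n, and, in Steap4, a STAT match from -116 to -108 and a C/EBP match from -87 to -80, with positions counted back from the start. Steap4, the gene that fell, held 4 matches in its window, since 2 kappa B matches lay farther upstream, outside the stretch shown. Lrg1, which rose, held none of the letters searched. The window of Lcn2 held a C/EBP match from -216 to -209, and 197 of its 250 upstream bases lay in an annotated exon of Lcn2, so they are not shown. Cp held an AP-1 match in the window of one start and a C/EBP match in that of the other. Over all 32851 windows, 10.8% held the C/EBP letters, 8.3% the STAT letters, 7.81% the AP-1 letters, 4.51% a kappa B match and 0.475% a glucocorticoid response element match. These matches are a description of letters and not of binding.

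Lcn2 encodes lipocalin-2, a siderophore-binding protein that withholds iron from bacteria and is stored in neutrophil granules. It was at 0.371, 0.247, 0.541 and 0.219 CPM in Control 1 to 4 (0.344 ± 0.147, SD, n = 4), which was 4 to 10 counts per library. In LLC 1 to 6 it was at 4.83, 2.60, 2.14, 3.88, 4.61 and 2.35 CPM (3.40 ± 1.19, SD, n = 6), from 37 to 94 counts. Every LLC sample lay above every Control sample, with LLC 1, 5 and 4 the highest. The log2 fold change was 3.29 ± 0.36 (SE; 95% interval 2.5 to 4.08; edgeR adjusted p = 0.000402). It stayed past the threshold in 17 of 17 alternatives that could be run, with a log2 fold change of 2.967 to 3.583. At its Control counts Lcn2 entered the test through the LLC libraries. The filter of at least 10 counts in every sample left it out. Within the LLC group the summed neutrophil markers were 42.3, 49.1, 35.0, 74.0, 74.7 and 36 CPM in LLC 1 to 6. LLC 4 and 5 held the highest sums. Across the 6 LLC samples Lcn2 and the neutrophil sum, on the log2 scale, had Pearson's r = 0.66 and Spearman's rho = 0.66 (exact permutation test, two-sided, p = 0.179 and 0.175; adjusted p = 0.801 over 39 relations). Without the 2 samples farthest from the median neutrophil sum r was 0.40. The macrophage sum had a larger relation with Lcn2 (r = 0.73, rho = 0.67; exact permutation test, adjusted p = 0.801). For the adipocyte sum r was 0.48, and for the endothelial sum it was 0.01. With 6 mice none of these relations passed, which does not show that they are absent. The part of neutrophils or of the other cells in the Lcn2 result was not tested.

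Mmp9, the gelatinase that binds lipocalin-2, rose 3.91-fold (edgeR adjusted p = 0.04), from 4 to 17 counts per Control library to 16 to 60 in LLC. At such Control counts Mmp9 entered the test through the LLC libraries, so its call is no separate support. Slc22a17, a lipocalin-2 receptor, had a fold of 0.587 (adjusted p = 0.057). It was past the threshold without LLC 1 (0.563-fold, adjusted p = 0.031) and by DESeq2 (adjusted p = 0.0498), and other alternatives were not examined for it. Lrp2, the megalin receptor, had at most 1 count in any library.

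Lrg1 encodes leucine-rich alpha-2-glycoprotein, which modifies TGF-beta signalling in endothelial cells. It was at 8.21, 6.86, 10.9 and 8.49 CPM in Control 1 to 4 (8.61 ± 1.67, SD, n = 4). In LLC 1 to 6 it was at 25.4, 18.9, 18.4, 18.6, 28.8 and 22.0 CPM (22.0 ± 4.29, SD, n = 6). The groups were far apart, since the lowest LLC sample stood at 18.4 CPM and the highest Control sample at 10.9 CPM. The log2 fold change was 1.36 ± 0.17 (SE; 95% interval 0.99 to 1.73; edgeR adjusted p = 0.000783), and it stayed past the threshold in 18 of 18 alternatives, between 1.215 and 1.487. Its spread in LLC, a coefficient of variation of 19.5%, was close to the 19.4% in Control, and LLC 1 was not the highest sample. The summed adipocyte markers had the largest r with Lrg1 among the 39 relations (r = 0.90, rho = 0.75; exact permutation test, two-sided, p = 0.0139 and 0.0944). That relation did not pass correction (adjusted p = 0.542), and r was 0.75 without the 2 samples farthest from the median adipocyte sum. The adipocyte sum itself was 168 to 209 CPM in Control and 161 to 229 CPM in LLC, with Fabp4, which endothelial cells also express, at 152 ± 12.6 CPM in Control (SD, n = 4) and 156 ± 21.5 CPM in LLC (SD, n = 6) making up most of it. None of 5 tested adipocyte markers passed the threshold in edgeR, DESeq2 or edgeR without LLC 1. In edgeR 2 had an unadjusted p under 0.05, 1 higher and 1 lower, and 3472 of all 12690 tested genes had such a p. The more fat-specific Adipoq, Cidec and Cfd had folds of 0.568, 0.537 and 0.567 (edgeR adjusted p = 0.203, 0.235 and 0.164), and the sum is mostly Fabp4. Lipe went the other way, with a fold of 1.24 (adjusted p = 0.0785), and Fabp4 had a fold of 1.02 (adjusted p = 0.871). The TGF-beta co-receptor Eng and the receptors Tgfbr2 and Acvrl1, through which Lrg1 is known to act, had folds of 1.16, 1.18 and 1.07 (edgeR adjusted p = 0.17, 0.508 and 0.651).

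Serpina3n encodes a secreted serine protease inhibitor related to human alpha-1-antichymotrypsin, and its RNA is known in muscle as a glucocorticoid-responsive transcript. It was at 0.424, 0.247, 0.757 and 0.712 CPM in Control 1 to 4 (0.535 ± 0.242, SD, n = 4). In LLC 1 to 6 it was at 9.05, 1.86, 0.463, 0.806, 1.78 and 2.07 CPM (2.67 ± 3.19, SD, n = 6). LLC 1 was the highest, at 19.5 times the lowest LLC sample, 5 of the 6 LLC samples lay above every Control sample, and LLC 3 lay within the Control range. The log2 fold change of 2.33 ± 0.80 (SE; 95% interval 0.57 to 4.09) did not pass (edgeR adjusted p = 0.1). Without LLC 1 the LLC mean was 1.40 ± 0.714 CPM (SD) and the log2 fold change 1.40 (adjusted p = 0.0561). DESeq2 called the gene higher with all 10 samples (log2 fold change 2.341, adjusted p = 0.0368). At 5 to 14 counts per Control library Serpina3n entered the test through the LLC libraries, so that call is no separate support. Its coefficient of variation was 119% in LLC and 45.3% in Control. A larger spread in LLC than in Control was found for 85.1% of all tested genes (SD of log2 CPM). The other 10 Serpina3 genes of the same cluster, which are near copies, had at most 13 counts in any library and 6 of them had none, and none was tested. If reads that map to several genes were left out, as by the HTSeq default that the methods name, the Serpina3n count may be too low by those shared with its copies.

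Hp encodes haptoglobin, which binds free hemoglobin. It was at 2.28, 2.12, 3.95 and 0.986 CPM in Control 1 to 4 (2.33 ± 1.22, SD, n = 4) and at 3.29, 2.60, 1.51, 4.13, 2.83 and 3.07 CPM in LLC 1 to 6 (2.90 ± 0.865, SD, n = 6). The groups overlapped, with the lowest value in Control 4 and only LLC 4 above all Control samples. The log2 fold change was 0.32 ± 0.33 (SE; 95% interval -0.41 to 1.05; edgeR adjusted p = 0.539). Among Control samples Hp had the same order as the fat hormone Adipoq, which was at 2.38, 2.27, 3.79 and 0.548 CPM, and Control 4 was also the lowest for the fat-cell protease Cfd, at 3.89 against 10.8 to 14.5 CPM. In LLC 1 to 6 Adipoq was at 1.95, 0.96, 1.04, 1.01, 1.64 and 1.01 CPM, and its highest sample was not that of Hp. Over the LLC samples Hp and the summed adipocyte markers had r = -0.11 and rho = -0.17 (exact permutation test, two-sided, p = 0.828 and 0.756). Leaving out Control 4 moved the log2 fold change of Hp to 0.068 (adjusted p = 0.907) and leaving out Control 3 moved it to 0.69 (adjusted p = 0.257). The part of fat cells in the Hp level was not tested. The haptoglobin receptor Cd163, a macrophage gene, had a fold of 0.809 (adjusted p = 0.325).

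Saa3 encodes a serum amyloid A made outside the liver by macrophages and fat. It had 0 counts in all 4 Control libraries and 4, 1, 2, 3, 2 and 2 counts in LLC 1 to 6. Each LLC library thus held at least 1 read and no Control library did. Over the unscaled totals the 14 LLC counts came to 0.129 CPM, and 0 counts over the whole Control group allow up to 0.0374 CPM (3 counts of the group's total), so, with the LLC counts taken as counted, Saa3 was at least 3.46-fold higher in LLC. An exact permutation test of the CPM gave p = 0.00952 (two-sided), the smallest that the 210 possible arrangements allow, and the edgeR fit with no filter on low counts gave an adjusted p of 0.032. Without LLC 1 the LLC libraries held 10 counts (0.109 CPM), which is at least 2.92-fold higher. The liver genes Saa1 and Saa2 had at most 2 counts in any library. Among receptors, Fpr2 had 0 counts in Control and 1 to 13 in LLC, Tlr2 had a fold of 1.81 (edgeR adjusted p = 0.181) and Tlr4 had at most 1 count.

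Orm1 encodes orosomucoid, an abundant plasma glycoprotein. It had 2, 4, 1 and 1 counts in Control 1 to 4 and 10, 1, 2, 2, 2 and 1 counts in LLC 1 to 6. Only LLC 1 lay above the Control range. The ratio of LLC to Control CPM over the unscaled totals was 1.67 (95% interval 0.69 to 4.43, counting error only; exact permutation test, two-sided, p = 0.819), and a difference was not detectable at this depth. Without LLC 1 the LLC libraries held 8 counts and the ratio turned to 0.876 (95% interval 0.287 to 2.68, counting error only). Orm2 had 4 counts in LLC 1 and none elsewhere, and Orm3 had none.

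Cp encodes ceruloplasmin, the copper ferroxidase that loads iron onto transferrin. It was at 4.93, 4.59, 4.70 and 4.38 CPM in Control 1 to 4 (4.65 ± 0.227, SD, n = 4) and at 5.35, 3.50, 3.88, 4.18, 3.77 and 2.91 CPM in LLC 1 to 6 (3.93 ± 0.817, SD, n = 6). Of the LLC samples, 5 lay below every Control sample and LLC 1 lay above them all. The log2 fold change was -0.24 ± 0.15 (SE; 95% interval -0.58 to 0.10; edgeR adjusted p = 0.316), and without LLC 1 it was -0.34 (adjusted p = 0.0822). The antisense neighbour Hps3, which shares 108 exonic bases, was at 4.82, 4.05, 4.38 and 5.04 CPM in Control and at 7.71, 5.53, 5.04, 5.59, 6.00 and 5.93 CPM in LLC 1 to 6, and it too was highest in LLC 1. The related ferroxidases differed little or were scarce. Heph had a fold of 0.706 (adjusted p = 0.217) and Hephl1 had 0 to 4 counts in Control and 0 to 16 in LLC.

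Steap4 encodes a metalloreductase of iron and copper that is known for its response to inflammatory cytokines in fat. It was at 27.5, 25.4, 33.6 and 26.9 CPM in Control 1 to 4 (28.4 ± 3.59, SD, n = 4) and at 20.9, 18.4, 18.3, 19.5, 15.5 and 17 CPM in LLC 1 to 6 (18.3 ± 1.88, SD, n = 6). Every LLC sample lay below every Control sample. The log2 fold change was -0.63 ± 0.11 (SE; 95% interval -0.87 to -0.40; edgeR adjusted p = 0.00475). Its size is near the 1.5-fold limit, and without Control 3 the log2 fold change of -0.543 was smaller than that limit (adjusted p = 0.0202). Without LLC 1 it was -0.668 (adjusted p = 0.000975). The fall ran beside lower fibroblast and fibro-adipogenic progenitor markers, whose sum was 309, 329, 397 and 372 CPM in Control 1 to 4 and 61.5, 102, 76.2, 91.3, 76.8 and 57.8 CPM in LLC 1 to 6, and the part of those cells in the Steap4 result was not tested. Of the paralogs, Steap3 had a fold of 0.607 (adjusted p = 0.182), with 4.89 CPM in LLC 1 against 16 to 25.1 CPM in the other LLC samples. Steap2 was at 0.457 ± 0.152 CPM in Control (SD, n = 4) and 0.17 ± 0.0813 CPM in LLC (SD, n = 6), too low to be tested, and Steap1 had at most 1 count.

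**Figure D2:**
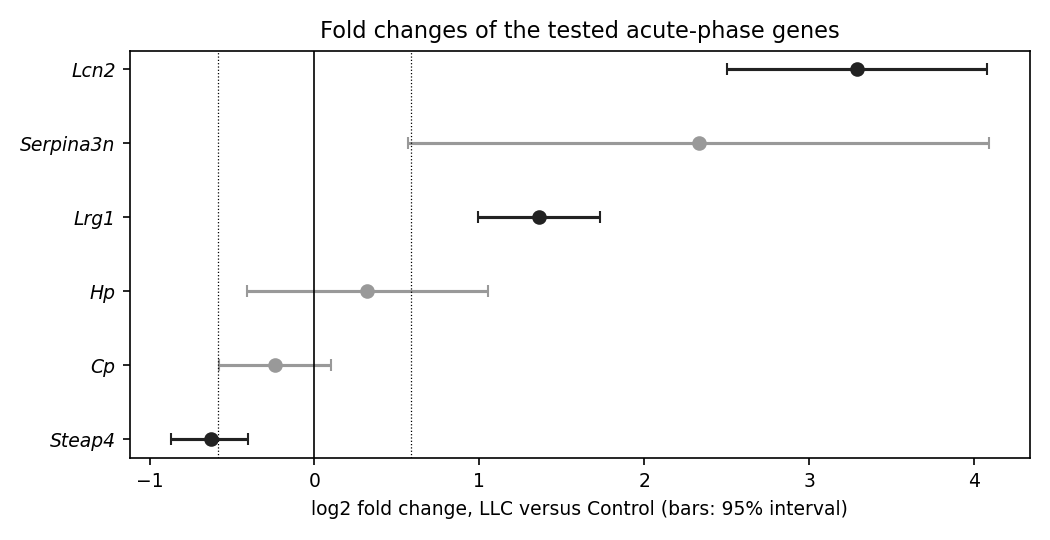
Log2 fold change of the 6 tested genes in LLC against Control, with 95% intervals from edgeR's quasi-likelihood fit. Dark points are past the threshold, gray points are not, and dotted lines mark 1.5-fold in either direction. The interval of Serpina3n, 0.57 to 4.09, is the widest, and that of Steap4, -0.87 to -0.40, is the narrowest and spans the 1.5-fold line.

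Per length of annotated exons (RPKM from the TMM-scaled CPM), the most abundant of the 8 transcripts in Control was Steap4 at 8.99 ± 1.14 RPKM (SD, n = 4), followed by Lrg1 at 6.11 ± 1.18 and Hp at 1.45 ± 0.76. Cp at 0.486, Serpina3n at 0.259, Orm1 at 0.133 and Lcn2 at 0.131 RPKM followed, and Saa3 was at 0. In LLC the order was Lrg1 at 15.6 ± 3.05 RPKM (SD, n = 6), Steap4 at 5.80 ± 0.596, Hp at 1.81 ± 0.539, Lcn2 at 1.30 ± 0.454 and Serpina3n at 1.29 ± 1.55, and then Cp at 0.411, Orm1 at 0.203 and Saa3 at 0.0473 RPKM. Lrg1 and Steap4 exchanged the first place, with ranges of 4.87 to 7.72 and 8.06 to 10.6 RPKM in Control and of 13.1 to 20.5 and 4.92 to 6.63 RPKM in LLC. Lcn2 moved from a range of 0.0835 to 0.206 RPKM in Control, overlapping those of Serpina3n and Orm1, to 0.817 to 1.84 RPKM in LLC, which overlaps those of Hp and Serpina3n. Lengths are the union of all annotated exons, which for genes with long annotated variants makes the RPKM too low.

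**Figure D3:**
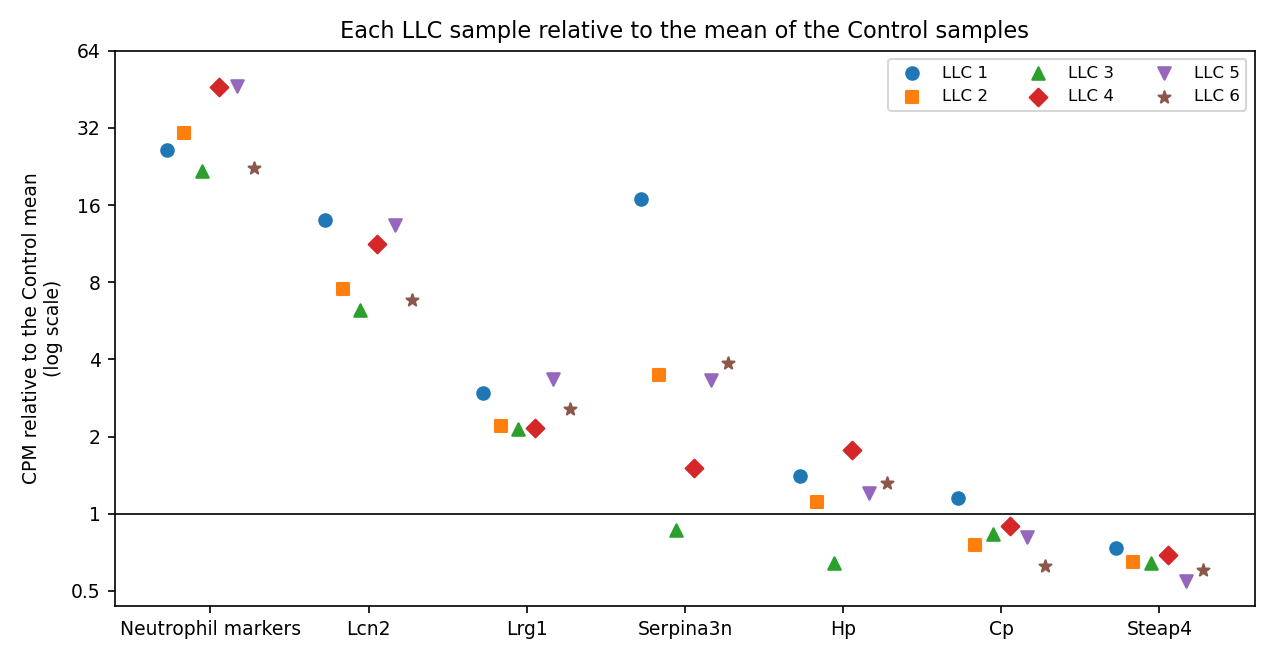
CPM of each LLC sample divided by the mean of the 4 Control samples, on a log axis, for the summed neutrophil markers and the 6 tested genes. Each symbol is an LLC sample and the line marks the Control mean. LLC 1 holds the highest value of Lcn2, Serpina3n, Cp and Steap4 but not of the neutrophil markers, Lrg1 or Hp.

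The 6 LLC mice did not rank alike for the 8 genes. LLC 1 held the highest Lcn2, Serpina3n, Saa3, Orm1, Cp and Steap4, LLC 5 the highest Lrg1, and LLC 4 the highest Hp. LLC 3 held the lowest Lcn2, Serpina3n, Lrg1 and Hp. Steap4 varied least among LLC mice, with a coefficient of variation of 10.3%, then Lrg1 with 19.5%, Cp with 20.8%, Hp with 29.8% and Lcn2 with 35.0%. Between Lcn2 and Lrg1, the genes that rose, r over the 6 LLC samples was 0.68 and rho 0.71 (exact permutation test, two-sided, p = 0.142 and 0.136; adjusted p = 0.801), and 0.50 without the 2 samples farthest from the median of Lcn2. None of the 39 relations among the members and with marker sums passed correction. As a description, and with no test, the gene whose log2 CPM over the 6 LLC samples was most like that of Lcn2 was Mon1b (r = 0.982), and for Serpina3n it was Dnm2 (r = 0.988). For Lrg1 it was Srxn1 (r = 0.994), for Hp Pde5a (r = 0.967), for Cp Hoxa11 (r = 0.981) and for Steap4 March8 (r = 0.99). Each was the highest of 10383 or 10384 genes compared on 6 points that share the same libraries, and none of these 6 genes was past the threshold.

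Most other acute-phase genes had few counts or none in this tissue. Of 33 found in the tables, 19 had at most 3 counts in any library and 7 of those had none, among them the fibrinogen genes Fga, Fgb and Fgg. The 9 tested had a median log2 fold change of 1.14, and 2 of them rose. DESeq2 called 4 of the 9 higher (Chil1, Mt1, Mt2 and C4b), with no adjusted p for Chil3, and 6 were higher at an unadjusted p under 0.05. Over all 12690 tested genes DESeq2 called 388 higher, and 3472 had an unadjusted p under 0.05 in edgeR, in either direction. Chil1, a chitinase-like glycoprotein, had 0 or 1 count in Control and 11 to 17 counts in LLC (22.9-fold, edgeR adjusted p = 0.000364). Chil3, a relative made by myeloid cells, was at 7.97 CPM in LLC 1 and 0.727 to 1.52 CPM in LLC 2 to 6, against 0 to 0.148 CPM in Control (38.6-fold, adjusted p = 0.0206). Without LLC 1 its fold was 19.2 (adjusted p = 0.000415). Chil1 and Chil3 both entered the test through the LLC libraries, so their calls, and the median that includes them, are no separate support. The metallothioneins Mt1 and Mt2, which bind zinc and copper, were at 141 and 144 CPM in LLC 1 and at 2.87 to 36.7 and 1.56 to 30.8 CPM in LLC 2 to 6. They did not pass with all samples (8.6-fold and 25.7-fold, edgeR adjusted p = 0.0937 and 0.0591) but did by DESeq2 (adjusted p = 0.0202 and 0.00098), and Mt2 passed in edgeR without LLC 1 (8.23-fold, adjusted p = 0.0269). None of the 9 was called lower by edgeR or by DESeq2, although Serping1, a complement inhibitor, had a fold of 0.688 (edgeR adjusted p = 0.0321) that is under the 1.5-fold limit and was the 1 gene of the list that was lower at an unadjusted p under 0.05.

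**Figure D4:**
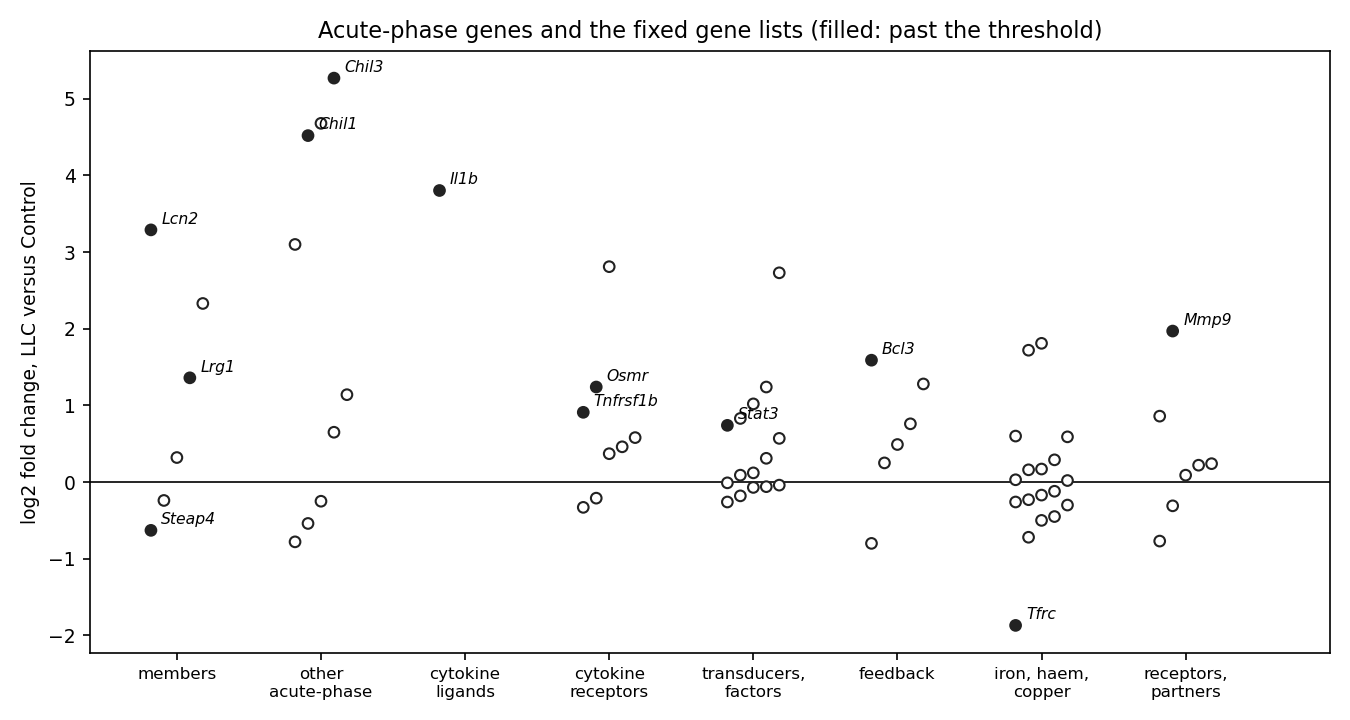
Log2 fold change in LLC against Control of the tested members and of the tested genes of 7 fixed lists of acute-phase, signalling and metal-handling genes (cell type markers and paralogs are not drawn), from edgeR's quasi-likelihood fit. Each circle is a gene, and filled circles, labelled, are past the threshold. Chil3, Chil1, Il1b and Lcn2 are the highest filled circles drawn, and Steap4 and Tfrc the filled circles drawn below 0.

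Among the cytokine ligands that drive these genes, only Il1b had enough counts to be tested. It entered the test through the LLC libraries, so its call is no separate support. It had 1 or 2 counts in each Control library and 10, 9, 19, 44, 41 and 13 counts in LLC 1 to 6 (14.0-fold, edgeR adjusted p = 0.00625). Every LLC sample was above every Control sample. Il6 had 0 to 2 counts in Control and 0 to 6 in LLC. Of the 8 receptors, 2 rose. Osmr, the oncostatin M receptor, was at 7.09 ± 1.87 CPM in Control (SD, n = 4) and 16.7 ± 3.01 CPM in LLC (SD, n = 6; 2.36-fold, adjusted p = 0.00175), and the tumor necrosis factor receptor Tnfrsf1b rose 1.88-fold (adjusted p = 0.00875). Il6ra, the interleukin-6 receptor, was at 46.3 CPM in LLC 1, 2.47 to 8.08 CPM in LLC 2 to 6 and 1.51 to 1.78 CPM in Control. It did not pass with all samples in edgeR (7.01-fold, adjusted p = 0.0837), but did by DESeq2 (7.11-fold, adjusted p = 0.0146) and in edgeR without LLC 1 (2.76-fold, adjusted p = 0.0153).

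Of 15 transducers and transcription factors, 1 rose. Stat3 was at 39.8, 39.3, 40.3 and 40.2 CPM in Control 1 to 4 and at 80.5, 55.3, 50.2, 57.1, 83.1 and 72.8 CPM in LLC 1 to 6 (1.67-fold, edgeR adjusted p = 0.0128). LLC 5 and LLC 1 were its highest samples, and its relation to the 8 members was not tested. Cebpd, a C/EBP factor of the acute phase, was at 81.7, 9.43, 14.1, 5.29, 66.1 and 18.6 CPM in LLC 1 to 6 and 4.00 to 6.57 CPM in Control. Its fold of 6.64 did not pass with all samples in edgeR (adjusted p = 0.0506), but it did by DESeq2 (6.71-fold, adjusted p = 0.00563) and in edgeR without LLC 1 (4.69-fold, adjusted p = 0.0352). Its relative Cebpb had a fold of 2.02 (edgeR adjusted p = 0.101) and was called higher by DESeq2 (2.04-fold, adjusted p = 0.0352). DESeq2 called 3 of the 15 higher, against 388 of all 12690 tested genes. Of 6 tested feedback genes, Bcl3, an NF-kappa B cofactor, rose 3.02-fold (adjusted p = 0.0157). At 8 to 25 counts per Control library Bcl3 passed the count filter only together with LLC libraries, so its call is no separate support. Socs3, the inhibitor that STAT3 induces, had a fold of 2.43 (adjusted p = 0.0711) and passed by DESeq2 (2.45-fold, adjusted p = 0.0101) and in edgeR without LLC 1 (2.51-fold, adjusted p = 0.0409). DESeq2 also called the kinase gene Pim1 higher (1.71-fold, adjusted p = 0.0498).

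Of 18 tested genes of iron, haem and copper handling, on which lipocalin-2, haptoglobin, ceruloplasmin and Steap4 act, Tfrc alone was past the threshold. Tfrc, the transferrin receptor through which cells take up iron, was at 238, 264, 254 and 281 CPM in Control 1 to 4 and at 18.3, 142, 99.7, 90.7, 30.5 and 45.2 CPM in LLC 1 to 6. Every LLC sample was below every Control sample, with LLC 1 and LLC 5 the lowest (0.274-fold, edgeR adjusted p = 0.0304; 0.316-fold and adjusted p = 0.00809 without LLC 1). None of the 18 was called higher by edgeR, while 2 were higher and 6 lower at an unadjusted p under 0.05, against 3472 of all 12690 tested genes in either direction. DESeq2 called Hmox1, the haem oxygenase that degrades haem, higher (3.54-fold, adjusted p = 0.0417), against 388 of all 12690. The copper importer Slc31a1 had a fold of 0.731 (edgeR adjusted p = 0.043), under the 1.5-fold limit.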

How the data were processed

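RNA was measured in tibialis anterior of 4 Control and 6 LLC mice, grouped by the sample labels. Total RNA was extracted with TRIzol and made into stranded, paired-end libraries that the authors sequenced in 1 lane. The authors mapped reads to mm10 with TopHat2 and counted them with HTSeq. The deposited values are whole-number counts per gene, not normalized, listed by Ensembl identifier although the methods name RefSeq genes and HTSeq's default settings, so the annotation and settings behind these tables were taken as unknown. Of 39179 identifiers, 37607 matched a symbol, and coordinates and exonic lengths came from GENCODE M21.

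Genes were kept by filterByExpr (count minimum 10), scaled by TMM factors and compared between groups, with no other term, by the quasi-likelihood test of edgeR 4.0.16 in R 4.3.3. The threshold was 1.5-fold in either direction at a p, adjusted by Benjamini-Hochberg, of at most 0.05. SEs were derived from the F statistic. CPM are TMM-scaled, and log2 CPM, on which correlations were computed, used a prior count of 2. Single values were compared by exact permutation over 210 splits. The test was checked on simulated counts. The interval of the Orm1 ratio and the floors cover counting error only, since reads without molecular identifiers are not independent molecules.

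Alternatives were median-of-ratios and upper-quartile factors, mitochondrial genes left out, other count filters, no fold limit, DESeq2 1.42.0 (the authors' test), limma voom (limma 3.58.1), a replicate block and each sample left out. The members, lists and motifs were chosen with earlier results of these data known. Members and close paralogs and receptors were named whatever their values, and other list genes mainly where past the threshold. Mt1, Mt2, Il6, Il6ra, Cebpd, Socs3, Serping1, Slc31a1, Hmox1, Adipoq, Cfd, Cidec, Fabp4, Lipe, Lyz2, C4b, Cebpb, Pim1, Hps3, Cdh5, Tie1, Emcn, Pecam1, Tek, Egfl7 and the liver genes were named after their values were seen. Likeness was Pearson's r over the LLC samples among tested genes with an average log2 CPM of at least 1. The list counts without LLC 1 and by DESeq2 were added after the data were seen.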

Additional observations from a re-analysis of the deposited data

Results flagged for a closer look

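In 5 of 35 groups of 4 or 6 values searched (the members, the marker sums and the total counts in each group, Saa3 in Control left out since all its values are 0), the highest or lowest sample stood apart from its group by more than Dixon's 95% limit for the gap over the range, and chance alone gives about 1 in 20 groups, or 1.75 here. LLC 1 stood apart for Serpina3n, at 9.05 CPM against 2.07 CPM in the next sample, a gap of 0.813 of the range. LLC 1 also stood apart for Orm1, at 0.514 CPM against 0.116 CPM (gap 0.869), a value that rests on 10 counts. Its hepatocyte marker sum was 3.5 CPM against 1.51 CPM (gap 0.69), of which Cyp2e1 made up 3.29 CPM. Its fast-fibre marker sum was the lowest, at 76700 CPM against 108000 CPM (gap 0.707). LLC 4 stood apart for the endothelial marker sum, at 327 CPM against 297 CPM (gap 0.638).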

How the results depend on the processing

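The count of members past the threshold, 3, moved between 2 and 4 over the alternatives, and the count of non-overlapping members, 4, between 3 and 5. It was 3 with total counts unscaled and 5 without LLC 1 or without LLC 3. No log2 fold change of the 6 tested members turned its sign. The ratio of Orm1, which was not tested, turned from 1.67 to 0.876 without LLC 1, an alternative added after the data were seen. Lcn2 and Lrg1 were past the threshold under every alternative in which they were tested. Over all genes the count past the threshold was 715, and it was 475 with at least 10 counts in every sample (11379 genes tested), 112 with the replicate block and 415 to 966 with a single sample left out. Leaving out Control 1, 2, 3 or 4 gave 417, 438, 415 or 418, each a fall of over 1.5 times. It was 1052 by DESeq2, and 3472 genes had an unadjusted p under 0.05. Replicate numbers belong to different animals in the groups, and same-numbered samples did not deviate together (correlations -0.081 to 0.126), so the numbers were not taken as pairs. Under that block Steap4 had a log2 fold change of -0.55 (adjusted p = 0.129) and 2 members were past the threshold. The depth limits Saa3 and Orm1, and 4 to 10 counts per Control library limit Lcn2. The cause of the other differences between alternatives was not tested.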
